A study of Mus musculus with 34 samples.

Results

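Claudins, occludin and the zonula occludens proteins form tight junctions, the seals that close the space between neighbouring epithelial cells. The 9 genes followed here were the claudin genes Cldn1, Cldn3, Cldn4, Cldn5, Cldn7, Cldn11 and Cldn12, the occludin gene Ocln, and Tjp1, which encodes the scaffold protein ZO-1. They were taken by name, as 9 of the 16398 gene symbols on the array (33370 genes when probes with no symbol are counted by their identifier, as in every count over all genes below), and each was read from its probe with the highest mean signal. In the testis, tight junctions between Sertoli cells make up the blood-testis barrier, which is taken apart and rebuilt as young spermatocytes pass from the basal to the adluminal side of the tubule. Cldn11 encodes the claudin without which this barrier does not form in the mouse, and Cldn3 a claudin of newly formed junctions. Retinoic acid (RA) acts through nuclear receptors, among them retinoic acid receptor alpha, and drives germ cell entry into meiosis.

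The RNA came from C57BL6/j mice aged 6 to 8 weeks and was measured on 34 one-colour Agilent arrays, in 17 groups of 2 arrays each. The groups were primary wild-type (WT) Sertoli cells cultured with RA for 24 h, at 1 mM per the labels, or with vehicle; Sertoli cells sorted by FACS from Nanos3 knockout (N3KO) or WT testes; and whole testes. Nanos3 is needed for germ cells to survive. The other 24 arrays held seminiferous tubules sorted into 4 groups of stages (I-III, then IV-VI, VII-VIII and IX-XII). Tubules of each came from testes injected 5 days earlier with lentivirus carrying dnRARa, which blocks signalling by that receptor, or the fluorescent protein Venus, or from untreated testes. The third group is VI-VIII in the titles but VII-VIII in the source names. The labels give no sorting marker, no promoter for the virus and no word on whether the replicates came from separate animals, so the p-values measure the spread between these samples, which may be technical.

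Each level below is the log2 processed signal minus that array's 75th percentile, so a level of 0 marks the 75th percentile of the array, and a difference of 1 is a doubling. Levels of different genes come from different probes and cannot be ranked against each other. Tests were moderated limma tests adjusted by the Benjamini-Hochberg method over all genes tested in the comparison, with a threshold of 0.05. Between 54.89% and 74.42% of spots were well above background, and the number of arrays limits the precision. Nanos3 was not well above background in either N3KO sample, against levels of -3.20 and -4.43 in sorted WT samples, at least 3.47-fold lower in N3KO. A missing Nanos3 signal was not particular to N3KO. In untreated tubules of stages I-III, IV-VI and IX-XII, replicate 2 was not well above background (-6.34, -5.23 and -6.14), against -0.36, -2.08 and -0.14 in replicate 1. The N3KO replicates stood apart from each other, with an SD of 0.786 for the difference between replicates over detected genes, against 0.161 to 0.557 in the other 16 groups. The Rara probe read -4.79 to -3.63 in dnRARa tubules, against -5.20 to -4.63 in Venus tubules. There were 10 slides and 5 scan days, and groups of several comparisons had slides of their own, as stated beside each. In such bulk samples fewer cells of a type and less RNA per cell cannot be told apart.

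The 6 members Cldn3, Cldn5, Cldn7, Cldn11, Cldn12 and Tjp1 were well above background on all 34 arrays, and Ocln on 31. Cldn11 stayed between 0.74 and 1.67 in whole testes, sorted WT cells and all tubules, and reached 3.29 to 5.54 in N3KO and cultured cells. Cldn5, best known from endothelium and also made by Sertoli cells, had the widest spread of the members detected on every array, from -5.19 to 4.19 with an SD of 2.12 over the 17 group means. Cldn4, a claudin of simple and ductal epithelia, passed background on 8 of 34 arrays: both arrays of N3KO cells and of each cultured group, and 1 array each of dnRARa tubules of stages I-III and IX-XII. Cldn1, a claudin of the skin barrier, passed on 1 of 34 arrays with either of its 2 probes, and so entered no comparison.

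**Figure D1:**
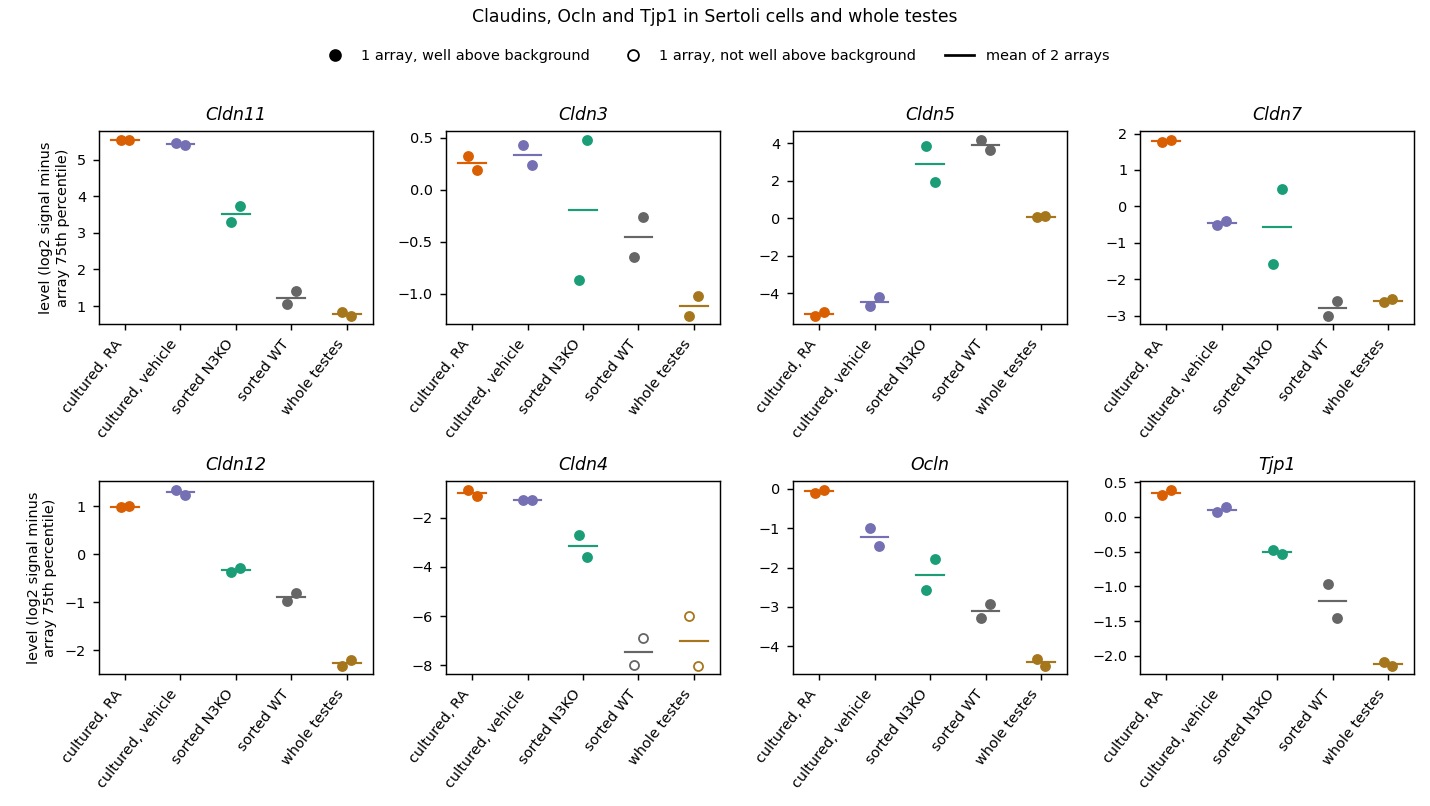
Level (log2 signal minus the array's 75th percentile) of 8 members in cultured Sertoli cells with RA or vehicle, sorted N3KO and sorted WT Sertoli cells, and whole testes; each point is 1 array, open where not well above background, and the line is the mean of 2 arrays. Cldn11 and Cldn4 stand highest in the cultured cells, whereas Cldn5 stands highest in the sorted cells, with 4.19 and 3.62 in sorted WT cells.

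Sorted WT Sertoli cells were set against whole testes to see which junction genes were more abundant after sorting. Among 7 members tested, Cldn5, Cldn12, Ocln and Tjp1 were higher in sorted WT cells and none was lower, where 79.1% of all genes tested were called, 38.2% higher and 40.9% lower. The median difference of the 7 was 0.91, against -0.068 for all genes.

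Cldn5 was at 4.19 and 3.62 in sorted WT cells, against 0.06 and 0.11 in whole testes. Both sorted samples lay far above both testes, and the difference was 3.82 (SE 0.56, adjusted p = 0.000586), a 14.1-fold difference. Cldn12, a claudin linked to paracellular calcium passage in the gut, was at -0.98 and -0.81 in sorted WT cells, against -2.32 and -2.21 in whole testes, a difference of 1.37 (SE 0.11, adjusted p = 2.65e-05). Ocln, a membrane protein of the tight junction strand, was higher by 1.30 (SE 0.28, adjusted p = 0.00429). Tjp1, whose product ties the strand to actin, was higher by 0.91 (SE 0.16, adjusted p = 0.00151). Its second probe did not show this rise, with means of -3.94 in sorted WT cells and -3.59 in whole testes.

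Cldn11 did not pass, although its 2 sorted samples, at 1.06 and 1.40, lay above the testes, at 0.84 and 0.74 (difference 0.44, SE 0.18, adjusted p = 0.0505). It passed under 5 of 15 other settings, among them leaving out replicate 1 of the sorted WT cells (0.0284) and quantile scaling (0.64, adjusted p = 0.00897). The values of Cldn3 (0.66, adjusted p = 0.163) and Cldn7 (-0.21, adjusted p = 0.756) did not pass either, although Cldn3 did with only the 4 arrays compared (0.027). The sorted cells carried other cell types: the summed linear level of 10 endothelial markers, in multiples of the array's 75th percentile, was 22.4 and 17.5 in sorted WT cells, against 2.68 and 2.60 in whole testes, and 9 of the 10 markers rose. All 8 Leydig markers rose as well, with sums of 2030.0 and 1940.0 against 211.0 and 207.0, while 8 of 14 Sertoli markers rose. What part these cells had in the result was not tested. Both groups lay on 1 slide. With the mean of detected probes Ocln (0.53, adjusted p = 0.168) and Tjp1 (0.28, adjusted p = 0.206) did not pass, and with normexp background correction the difference of Ocln was 0.62 (adjusted p = 0.0105). That mean takes each probe detected on both arrays of at least 1 of all groups. The second Ocln probe passed background on 3 of 34 arrays, all of cultured cells. Ocln values under that setting, here and below, thus include a probe not detected in sorted cells, testes or tubules.

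**Figure D2:**
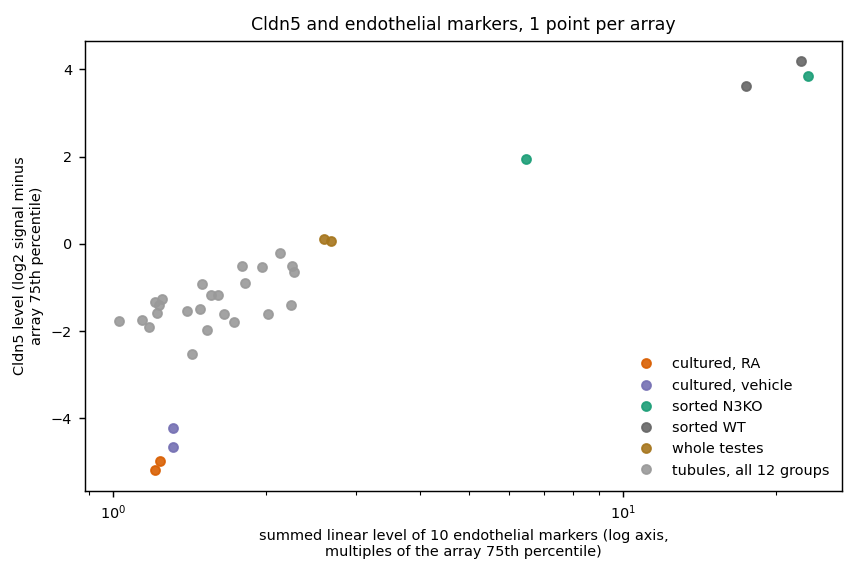
Cldn5 level (log2 signal minus the array's 75th percentile) against the summed linear level of 10 endothelial markers (log axis) on all 34 arrays, coloured by sample kind. Arrays with the highest marker sums, up to 23.1, have the highest Cldn5 levels. The cultured cells have the lowest Cldn5 levels, at marker sums within the range of the tubules. These sums include markers not well above background in cultured cells and in some tubule groups.

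The plot of Cldn5 against the endothelial markers places the sorted cells apart from all others. The N3KO samples differed on both: Cldn5 was at 3.85 in the N3KO sample with an endothelial sum of 23.1 and at 1.94 in the one with a sum of 6.46. Over the 12 tubule groups, whose members share arrays, normalization and tissue, the genes most like Cldn5 by Pearson correlation of group means were Tm4sf1 (0.954), Icam2 (0.951) and Mmrn2 (0.935), out of 14065 genes compared. Over all 17 groups they were other genes, Ces1d (0.992), Il18 (0.989) and Rhbg (0.989), out of 14024. Leydig markers were likewise most abundant in the sorted cells, with summed levels of 1120.0 and 739.0 in N3KO cells and 2030.0 and 1940.0 in sorted WT cells, and between 11.3 and 15.6 in the cultured cells, where Cldn5 was lowest. Tubules had Leydig sums of 11.7 to 51.4, and endothelial sums of 1.03 to 2.27 against 1.21 to 1.31 in cultured cells. Not all 10 endothelial markers were well above background on both arrays: Tie1, Tek and Vwf were not in cultured cells, nor Pecam1 and Tie1 in untreated tubules. Like sums thus need not mean like amounts of these cells. Cldn5 was at -2.52 to -0.22 in tubules, against -5.19 to -4.22 in cultured cells. What part these cell types had in the Cldn5 level was not tested.

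Sertoli cells from N3KO testes were set against sorted WT cells. Of 8 members tested, 6 were higher in N3KO cells (Cldn11, Cldn4, Cldn7, Ocln, Tjp1 and Cldn12) and none was lower, where 48.4% of all genes were called, 25.6% higher and 22.8% lower. The median difference of the members was 0.81 and that of all genes 0.06.

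Cldn11 was at 3.29 and 3.72 in N3KO cells, against 1.06 and 1.40 in sorted WT cells. The 2 groups were well apart, by 2.28 (SE 0.17, adjusted p = 4.81e-05), a 4.85-fold difference that passed under each of the 15 other settings tried. Cldn4 was at -2.69 and -3.61 in N3KO cells and not well above background in either sorted WT sample, which makes it at least 5.48-fold higher in N3KO cells (adjusted p = 0.00207). With normexp background correction the fitted log2 difference of Cldn4 was 1.11 (adjusted p = 0.00342), a smaller change than that bound. Cldn7, a claudin found along the sides of many epithelial cells, was at -1.59 and 0.48 in N3KO cells, against -3.0 and -2.59 in sorted WT cells; both N3KO samples were higher but they differed from each other by more than the WT samples did (difference 2.24, SE 0.58, adjusted p = 0.0176).

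Ocln was at -2.58 and -1.79 in N3KO cells, against -3.29 and -2.92 in sorted WT cells (difference 0.92, SE 0.28, adjusted p = 0.0322). Tjp1 was higher by 0.70 (SE 0.16, adjusted p = 0.0102) and Cldn12 by 0.57 (SE 0.11, adjusted p = 0.00492). Cldn3 was at -0.87 and 0.48 in N3KO cells, on either side of the WT samples at -0.65 and -0.26, and Cldn5 had a difference of -1.01 (adjusted p = 0.18). Without replicate 1 of the N3KO cells both passed, Cldn3 at 0.93 (adjusted p = 0.00593) and Cldn5 at -1.96 (adjusted p = 0.0014). Cldn7 did not pass without either WT sample (adjusted p = 0.0935 without replicate 1 and 0.052 without replicate 2), and Ocln did not pass without N3KO replicate 2 (0.098) or without WT replicate 1 (0.159) or 2 (0.0533).

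Of the germ cell markers, all 9 spermatid markers fell, with summed levels of 0.441 and 0.537 in N3KO cells against 752.0 and 477.0 in sorted WT cells, and all 8 spermatocyte markers fell. The sum of 5 spermatogonia markers was 40.6 and 21.7 in N3KO cells, against 19.7 and 24.5 in sorted WT cells. Only 2 of these 5 were well above background on both N3KO arrays. All 7 macrophage and immune markers rose (sums of 173.0 and 294.0 against 29.1 and 60.0), as did the 5 of 8 duct epithelium markers that were tested (4.15 and 4.79 against 2.32 and 0.889). Sertoli sums leave out Clu, and spermatocyte sums Ldhc, here and below. Of 14 Sertoli markers 5 rose and 2 fell (sums of 43.5 and 78.1 against 28.7 and 40.4), and 5 of 8 Leydig markers fell (1120.0 and 739.0 against 2030.0 and 1940.0). Their part in the result was not tested. The N3KO arrays lay on a slide of their own, so slide and genotype cannot be told apart. The median of all genes shifted to 0.631 with median scaling, where 76.9% of called genes were higher, and to 0.253 with quantile scaling (64.5%), against 52.9% as reported. With median scaling the differences were 1.14 for Cldn12, 1.27 for Tjp1 and 1.5 for Ocln, and with quantile scaling 1.47 for Ocln. The second Tjp1 probe did not show the rise, with means of -4.15 in N3KO cells and -3.94 in sorted WT cells. Tjp1 did not pass with the mean of its 2 probes (0.25, adjusted p = 0.313). Ocln with the mean of its probes (0.61, adjusted p = 0.167) or with no detection filter (0.0522) did not pass either. With only the 4 arrays compared Cldn7 (0.114), Ocln (0.155), Tjp1 (0.147) and Cldn12 (0.154) all lost their calls.

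Among related genes, 6 of 9 tested membrane genes of the tight junction were also higher in N3KO cells. Jam2, a junctional adhesion molecule, was higher by 2.04 (adjusted p = 7.14e-06), Jam3 by 1.41 and Cxadr, the coxsackievirus and adenovirus receptor, by 4.26. Of 6 other claudin genes tested, Cldn23 was higher by 3.14 (adjusted p = 2.71e-06) and Cldn14 lower (-0.39, adjusted p = 0.0162). Of 20 scaffold and polarity genes, 7 were higher and 4 lower, with a median of -0.03.

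In cells cultured with vehicle, against sorted WT cells, 6 of 8 members were higher (Cldn11, Cldn4, Cldn7, Cldn12, Ocln and Tjp1) and Cldn5 was lower, where 74.7% of all genes were called, 31.7% higher and 43.0% lower. The same sorted WT arrays enter all 3 comparisons of sorted and cultured cells given so far, so these are not independent of each other.

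Cldn11 was at 5.45 and 5.41 in cultured cells, against 1.06 and 1.40 in sorted WT cells, an 18.3-fold difference (4.20, SE 0.17, adjusted p = 1.79e-06). Cldn4 was at -1.29 and -1.30 in cultured cells and at least 19.8-fold higher than in sorted WT cells, where it was not well above background (adjusted p = 0.000161). With normexp its fitted log2 difference was 2.54, a smaller change than that bound, so the fold depends on the background correction. Cldn5 was at -4.67 and -4.22 in cultured cells, against 4.19 and 3.62 in sorted WT cells (difference -8.35, SE 0.56, adjusted p = 1.46e-05). Cldn11 and Cldn5 thus differed in opposite directions, each with no overlap between the groups.

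The other rises were 2.33 for Cldn7 (adjusted p = 0.00866), 2.18 for Cldn12 (adjusted p = 3.95e-06), 1.88 for Ocln (adjusted p = 0.000773) and 1.31 for Tjp1 (adjusted p = 0.00027). The rise of Tjp1 was seen with 1 of its 2 probes: the second probe was at -4.73 in cultured cells, against -3.94 in sorted WT cells (means of 2 arrays), and with the mean of both probes Tjp1 did not pass (0.26, adjusted p = 0.237). With median scaling its difference was 2.23. Cldn3 had a difference of 0.79 that did not pass (adjusted p = 0.109), but passed with median scaling (1.71, adjusted p = 0.0113) and with only the 4 arrays compared (0.016). Without replicate 1 of the sorted WT cells Cldn7 did not pass (adjusted p = 0.0525). All 10 endothelial markers fell (sums of 1.31 and 1.31 against 22.4 and 17.5), and Tie1, Tek and Vwf were not well above background in cultured cells. All 8 Leydig markers fell (11.3 and 12.1 against 2030.0 and 1940.0), as did all 9 spermatid markers (0.596 and 0.547 against 752.0 and 477.0). The other germ cell sums stayed of like size. Spermatocyte markers summed to 9.84 and 9.92 in cultured cells against 11.9 and 8.59, and spermatogonia markers to 28.6 and 27.0 against 19.7 and 24.5. Of 7 macrophage and immune markers 6 fell and 1 rose (4.11 and 4.56 against 29.1 and 60.0), and of 14 Sertoli markers 8 rose and 3 fell (41.0 and 41.6 against 28.7 and 40.4). Duct epithelium markers summed to 20.0 and 20.5 in cultured cells, with 4 of 6 tested rising. Their part in the result was not tested, and slide, scan day and culture cannot be told apart. Of called genes 42.5% were higher, against 53.5% with quantile and 66% with median scaling, where the median of all genes was 0.118 and 0.702.

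RA was given to cultured cells to find genes that respond within a day. None of 8 members passed, where 5.47% of all genes did (1098 of 20078, 3.55% higher and 1.92% lower), and 3 members had an unadjusted p under 0.05. Cyp26a1, which encodes an RA-degrading enzyme, was at least 664.0-fold higher with RA than with vehicle.

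Cldn7 was at 1.78 and 1.83 with RA, against -0.52 and -0.41 with vehicle. Both RA samples lay above both vehicle samples, at the highest levels of Cldn7 on any array, but the spread pooled from all 5 groups of this model, in which the N3KO samples differed most, gave an SE of 0.58 to the difference of 2.26 (adjusted p = 0.0781). Ocln was at -0.10 and -0.03 with RA, against -1.0 and -1.45 with vehicle, likewise without overlap (difference 1.16, SE 0.28, adjusted p = 0.0665). Cldn12 was at 0.98 and 1.00 with RA, against 1.34 and 1.23 with vehicle (difference -0.29, adjusted p = 0.205).

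A model of only these 4 arrays, which share 1 slide, called 7187 genes and 4 members: Cldn7 (adjusted p = 0.000579), Ocln (0.014), Tjp1 (0.24, adjusted p = 0.0393) and Cldn12 (0.0278). With 1 model of all arrays Cldn7 passed (0.000929), and with normexp background correction Ocln did (0.0217). The second, dimmer Ocln probe was at -4.83 with RA, against -6.00 with vehicle, where 1 of 2 arrays was above background. Cldn11, at 5.53 and 5.54 with RA against 5.45 and 5.41 with vehicle, differed by 0.11 (SE 0.17, adjusted p = 0.853), and Cldn3 (difference -0.08, SE 0.39, adjusted p = 0.968). Cldn4 was at -0.87 and -1.12 with RA, against -1.29 and -1.30 with vehicle (difference 0.30, adjusted p = 0.908), and Cldn5 had a difference of -0.64 (adjusted p = 0.663). Of 14 Sertoli markers 2 rose and 1 fell (sums of 63.4 and 63.1 with RA, against 41.0 and 41.6 with vehicle), and duct epithelium markers summed to 38.5 and 38.8 with RA, against 20.0 and 20.5 with vehicle, with 1 of 6 tested rising. Spermatogonia markers summed to 102.0 and 101.0 with RA, against 28.6 and 27.0 with vehicle. Among these markers Stra8, a gene of entry into meiosis, was at 3.94 and 3.83 with RA, against -0.02 and -0.04 with vehicle. The cultures thus held germ cell RNA as well as that of Sertoli cells. Their part in the result was not tested. Among the related genes, Cldn14 rose by 0.56 (adjusted p = 0.0203), Jam3 by 0.52 (adjusted p = 0.0262) and Magi3 by 0.87 (adjusted p = 0.0316), while Crb3 fell by 0.92 and Mpp5 by 0.61.

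The stage groups of untreated tubules show how the members vary over the cycle. Of 7 members tested, Cldn3, Cldn12, Ocln and Cldn7 differed between stages in untreated tubules (moderated F test), where 69.1% of all genes tested did. Their largest differences between stage means were 2.33 for Cldn3 (adjusted p = 0.000259), 2.17 for Ocln (adjusted p = 0.000697), 1.04 for Cldn12 (adjusted p = 0.00013) and 0.96 for Cldn7 (adjusted p = 0.00846). Cldn11 varied by 0.39 (adjusted p = 0.071), Tjp1 by 0.67 (adjusted p = 0.0548) and Cldn5 by 0.49 (adjusted p = 0.816). With the replicate number as a block Cldn11 (0.0236) and Tjp1 (0.0331) passed as well, which makes 6 members. Cldn7 did not pass with normexp background correction (0.55, adjusted p = 0.16), with 1 model of all arrays (0.109) or with only the untreated arrays (0.112), and the span of Ocln was 1.32 with normexp and 1.35 with the mean of its probes. Stages I-III and IV-VI each had a slide of their own and the later stages shared another, so slide and stage cannot be told apart in this test.

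**Figure D3:**
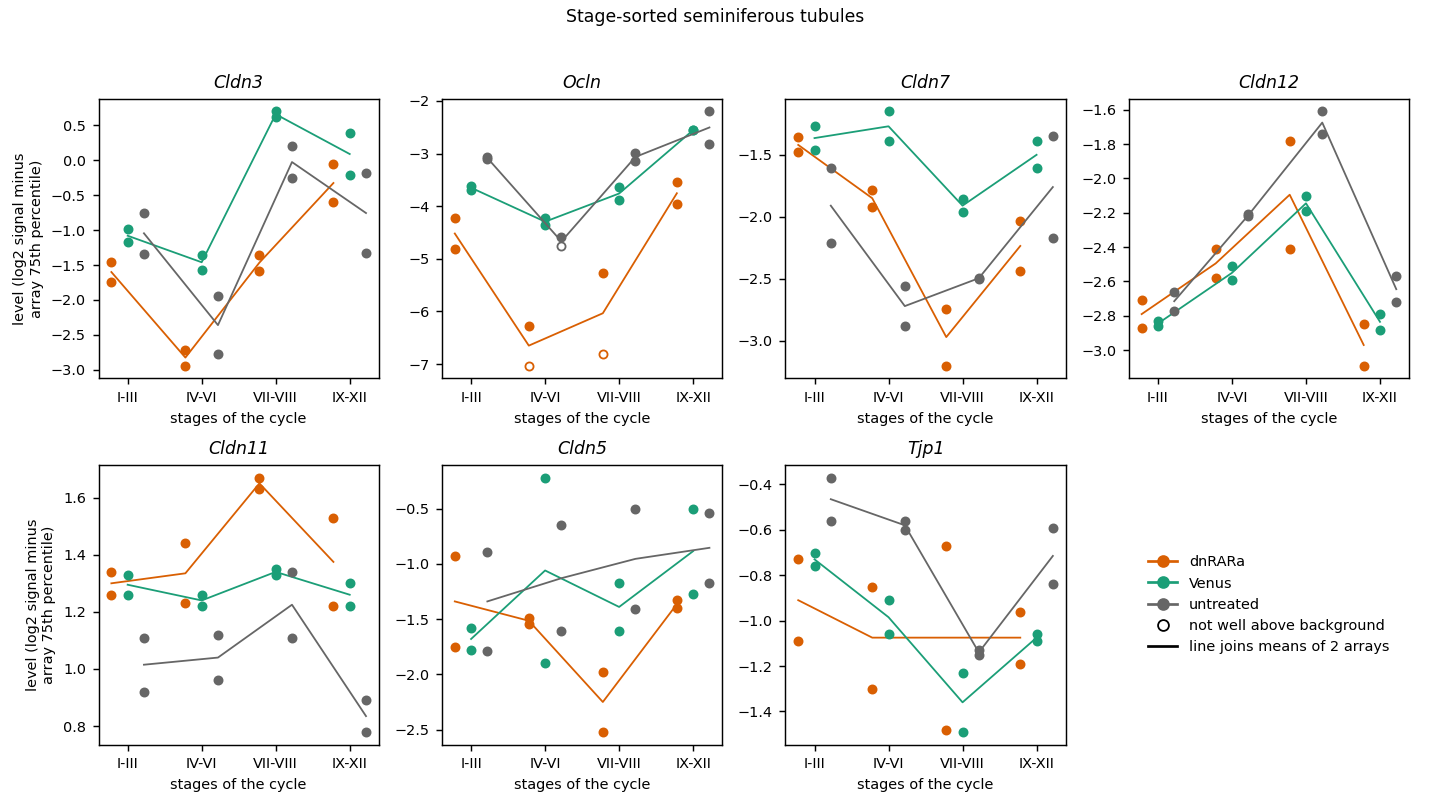
Level (log2 signal minus the array's 75th percentile) of 7 members in the 4 stage groups of dnRARa, Venus and untreated tubules; points are arrays, open where not well above background, and lines join means of 2 arrays. Cldn3 and Ocln are lowest in stages IV-VI in all 3 arms, and Cldn12 is highest in stages VII-VIII in all 3.

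Cldn3 was at -1.34 and -0.75 in stages I-III, -2.77 and -1.95 in IV-VI, -0.26 and 0.21 in VII-VIII, and -1.33 and -0.18 in IX-XII. Stages IV-VI were the lowest and did not overlap with the others, and the replicates of IX-XII lay far apart. Ocln followed a like course in part, with -3.11 and -3.06 in I-III, -4.75 and -4.59 in IV-VI, -3.14 and -2.99 in VII-VIII, and -2.81 and -2.20 in IX-XII. In stages IV-VI 1 of its 2 arrays was above background. Cldn12 peaked in VII-VIII, at -1.61 and -1.74, against -2.22 and -2.21 in IV-VI.

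From stages I-III to IV-VI, 4 members changed, with 22.3% of all genes called, 11.7% higher and 10.6% lower. Cldn3 fell by 1.31 (adjusted p = 0.0144), Ocln by 1.59 (adjusted p = 0.00742) and Cldn7 by 0.81 (adjusted p = 0.0315), while Cldn12 rose by 0.50 (adjusted p = 0.0364, and 0.0585 with the variance prior estimated over all genes). The prior behind the reported value was chosen after the other result had been seen. With normexp background correction Ocln (0.55, adjusted p = 0.221) and Cldn7 (0.07, adjusted p = 0.845) turned to the other side without passing, and Cldn3 did not pass (-0.68, adjusted p = 0.0743). With only the 4 arrays compared none of the 4 passed (0.0709 to 0.172). Cldn12 also failed with no detection filter (0.0937), quantile scaling (0.0885) and median scaling (0.168), Cldn7 with no detection filter (0.0767) and 1 model of all arrays (0.169), and Ocln with the mean of its probes (-0.80, adjusted p = 0.053). Without replicate 2 of stages I-III, Cldn3 (adjusted p = 0.116), Cldn7 (0.25) and Cldn12 (0.151) did not pass. The same held without replicate 1 of stages IV-VI, for Cldn3 (0.139), Cldn7 (0.17) and Cldn12 (0.107). Cldn7 failed without replicate 2 of IV-VI too (0.0583), and Cldn12 failed without any 1 of the 4 arrays. Of called genes 52.5% were higher, and 33.9% with median scaling. The 2 stage groups lay on separate slides of 1 scan day, so slide and stage cannot be told apart here or for the next step.

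From IV-VI to VII-VIII 3 members rose, with 42.3% of all genes called, 22.4% higher and 19.9% lower. Cldn3 was higher in VII-VIII by 2.33 (SE 0.35, adjusted p = 9.88e-05), a 5.04-fold difference that passed under all 15 other settings. Ocln was higher by 1.60 (SE 0.37, adjusted p = 0.00297) and Cldn12 by 0.54 (SE 0.16, adjusted p = 0.0132), and with normexp neither passed (0.77, adjusted p = 0.155, and 0.38, adjusted p = 0.309). With the mean of its probes Ocln was higher by 0.79 (adjusted p = 0.0361). Cldn12 also failed without either array of IV-VI (0.0535) and without replicate 1 of VII-VIII (0.0853). Tjp1 was at -1.15 and -1.13 in VII-VIII, against -0.60 and -0.56 in IV-VI (difference -0.56, adjusted p = 0.0525), and passed with the replicate number as a block (0.0341) and with the mean of its 2 probes (-0.55, adjusted p = 0.000448).

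Stages IX-XII and VII-VIII shared 1 slide. Cldn12 was at -2.72 and -2.57 in IX-XII, against -1.61 and -1.74 in VII-VIII, lower (difference -0.97, SE 0.16, adjusted p = 0.00014) under all 15 other settings as well. Cldn11 was at 0.89 and 0.78 in IX-XII, against 1.11 and 1.34 in VII-VIII (difference -0.39, SE 0.12, adjusted p = 0.017). Cldn7 was at -2.17 and -1.35 in IX-XII, against -2.49 and -2.50 in VII-VIII (difference 0.73, adjusted p = 0.0238). These 3 members passed where 49.7% of all genes did, 24.8% higher and 24.9% lower. Median scaling left 60.4% of called genes higher, against 49.9%.

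The Cldn11 call failed without replicate 2 of IX-XII (0.0838) or of VII-VIII (0.166), and that of Cldn7 without replicate 2 of IX-XII (0.319) or either array of VII-VIII (0.0812 and 0.0826). With normexp neither Cldn11 (-0.27, adjusted p = 0.179) nor Cldn7 (0.09, adjusted p = 0.801) passed, nor did they with only the 4 arrays compared (0.208 and 0.149). Cldn11 failed with median scaling too (-0.25, adjusted p = 0.103), and Cldn7 with no detection filter (0.0535) and 1 model of all arrays (0.141). Cldn3 had a difference of -0.73 (adjusted p = 0.095), which passed with the replicate number as a block (0.0471) and without replicate 2 of IX-XII (-1.31, adjusted p = 0.00813). From IX-XII back to I-III, none of 7 members passed and none had an unadjusted p under 0.05, where 34.6% of all genes passed, 15.1% higher and 19.5% lower. With the mean of its probes Tjp1 passed (0.66, adjusted p = 0.000217), and slide and stage cannot be told apart.

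Cell type markers also varied by stage in untreated tubules: 6 of 12 tested Sertoli markers and 4 of 4 tested duct epithelium markers did, where 69.1% of all genes did. The Sertoli sums lay between 10.5 and 28.6, highest in IV-VI. Whether these markers had a part in the result was not tested. Of the other tight junction genes, the membrane gene Marveld3, a relative of occludin, was lower in VII-VIII than in IV-VI (difference -4.76, adjusted p = 5.77e-08), and the polarity gene Crb1 was higher by 3.36 (adjusted p = 4.55e-05). Cldn13, a claudin gene of the mouse, was higher by 2.35 and Cldn10 by 3.11, while Cldnd1 was lower (-2.24). Of 20 scaffold and polarity genes, 3 were higher and 9 lower in that step, among them Patj (-2.50) and Mpdz (-2.22).

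In Venus tubules Cldn3, Cldn12 and Ocln differed between stages, with 53.9% of all genes called, and in dnRARa tubules Cldn3, Cldn12, Cldn7 and Ocln did, with 55.0%. The spans of the stage means in Venus tubules were 2.12 for Cldn3 (adjusted p = 0.000371), 1.74 for Ocln (adjusted p = 0.00798) and 0.70 for Cldn12 (adjusted p = 0.00527). In dnRARa tubules they were 2.50 for Cldn3 (adjusted p = 0.000269), 2.90 for Ocln (adjusted p = 4.16e-05), 0.88 for Cldn12 (adjusted p = 0.00156) and 1.55 for Cldn7 (adjusted p = 0.00072). Ocln in Venus tubules failed without either array of stages IX-XII (0.0538 and 0.0519), and with normexp neither Ocln (1.23, adjusted p = 0.0517) nor Cldn12 (0.54, adjusted p = 0.41) passed there. In dnRARa tubules, where 2 of 8 arrays had Ocln below background, Ocln (0.92, adjusted p = 0.236) and Cldn12 (0.73, adjusted p = 0.133) also lost their calls with normexp, and Cldn12 with only the dnRARa arrays (0.0587). With the mean of its probes the span of Ocln was 1.13 in Venus tubules and 1.42 in dnRARa tubules, and both passed. With slide as a fixed block Tjp1 passed as well in Venus tubules (0.63, adjusted p = 0.00952), and no call changed in dnRARa tubules.

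The dominant negative receptor was compared with the control virus to find what depends on RA receptor signalling in the tubule. Over the 4 stage groups Ocln, Cldn3 and Cldn7 were lower in dnRARa than in Venus tubules and none of the 7 members tested was higher, where 12.3% of all genes were called, 3.99% lower and 8.28% higher. The median difference of the members was -0.36 and that of all genes 0.016. These 3 calls held in every fit that left out 1 array. Cldn7 did not pass with normexp background correction (-0.50, adjusted p = 0.0594) or with 1 model of all arrays (0.057). Of called genes 67.5% were higher, and 56.6% with quantile or 53.6% with median scaling.

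Ocln was lower in dnRARa tubules (difference -1.67 on average, SE 0.19, adjusted p = 7.64e-05) and was the lower one in 8 of 8 pairs of dnRARa and Venus arrays of the same stage and scan day. All stages of an arm shared 1 slide within a scan day, so these pairs, here and below, are not independent of each other. The pairs are made of the arrays that gave the calls, so their counts describe the calls and add no separate support. No such count over all genes is given. In stages I-III it was at -4.22 and -4.82 in dnRARa tubules, against -3.61 and -3.69 in Venus tubules. In IV-VI it was at -6.27 and -7.03, against -4.36 and -4.23, and in VII-VIII at -5.27 and -6.80, against -3.64 and -3.88. In IX-XII it was at -3.96 and -3.55 in dnRARa tubules, against -2.55 and -2.56 in Venus tubules. The groups did not overlap in any stage, and 1 of 2 dnRARa arrays fell below the background limit in IV-VI and in VII-VIII, so those levels are uncertain. With normexp the difference over the stages was -0.77 (adjusted p = 0.0321).

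Cldn3 was lower (difference -1.11 on average, SE 0.18, adjusted p = 0.00106), also in 8 of 8 pairs. In stages VII-VIII it was at -1.35 and -1.58 in dnRARa tubules, against 0.62 and 0.70 in Venus tubules. In IV-VI it was at -2.71 and -2.94 in dnRARa tubules, against -1.57 and -1.35 in Venus tubules. The gap was widest in VII-VIII, while in IX-XII the groups overlapped, with -0.59 and -0.06 in dnRARa tubules against -0.21 and 0.39 in Venus tubules. Cldn7 was lower (difference -0.61, SE 0.13, adjusted p = 0.00646), in 7 of 8 pairs, with -2.74 and -3.20 in dnRARa tubules of VII-VIII against -1.96 and -1.86 in Venus tubules, and did not pass with normexp (-0.50, adjusted p = 0.0594) or with 1 model of all arrays (0.057).

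No other member passed. Cldn11, the central claudin of the barrier, had a mean difference of 0.13 (SE 0.06, adjusted p = 0.205), Cldn12 of 0.01 (SE 0.08, adjusted p = 0.969), Tjp1 of 0.00 (SE 0.11, adjusted p = 0.986) and Cldn5 of -0.36 (SE 0.26, adjusted p = 0.415).

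**Figure D4:**
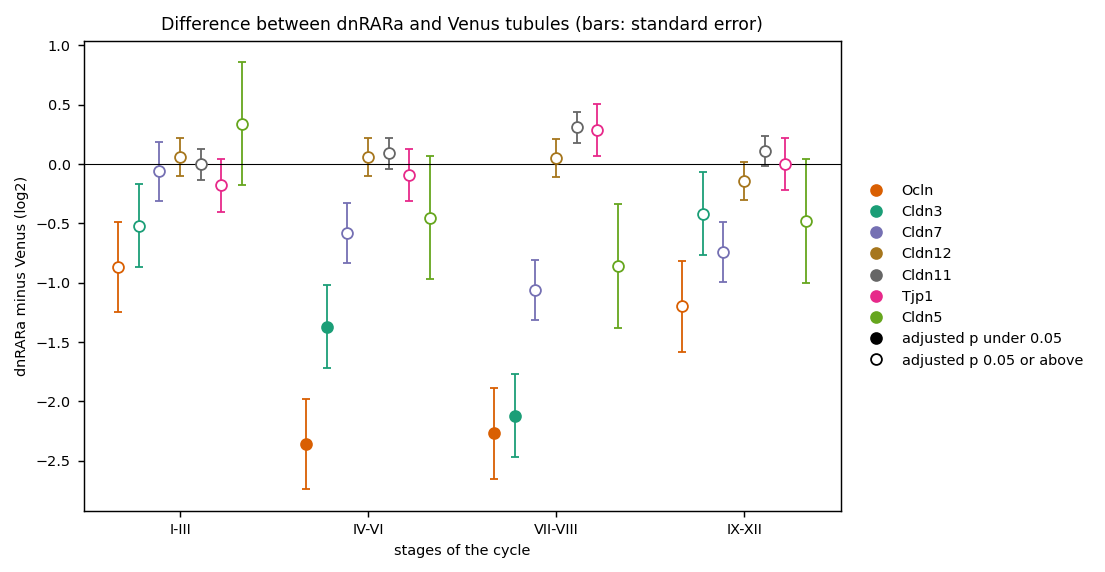
Difference between dnRARa and Venus tubules (log2) by stage group for 7 members, with the standard error of the fit as bars; filled points have an adjusted p under 0.05. Ocln and Cldn3 lie furthest below 0 in stages IV-VI and VII-VIII, at -2.36 and -1.37 and at -2.27 and -2.12.

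Stage by stage, 2 members were lower in IV-VI, with 3.34% of all genes called and 1.8% called lower: Ocln (difference -2.36, SE 0.38, adjusted p = 0.007) and Cldn3 (difference -1.37, SE 0.35, adjusted p = 0.0494). The call of Cldn3 sits at the threshold and did not pass with the variance prior over all genes (0.069; the prior behind the reported value was chosen after the other result had been seen) or without any 1 of the 4 arrays (0.0916 to 0.422). It also failed with slide as a random block (0.0604), normexp (0.0871), no detection filter (0.0921), the mean of detected probes (0.0521), 1 model of all arrays (0.0544) and only the 4 arrays compared (0.0608). Ocln in IV-VI failed without replicate 2 of the Venus tubules (0.0566) or of the dnRARa tubules (0.153) and with only the 4 arrays compared (0.0608), and was -1.43 with the mean of its probes. In VII-VIII the same 2 members were lower, with 1.54% of all genes called and 0.796% called lower: Cldn3 (difference -2.12, SE 0.35, adjusted p = 0.00709) and Ocln (difference -2.27, SE 0.38, adjusted p = 0.00709). Cldn7 in VII-VIII had a difference of -1.06 that did not pass (adjusted p = 0.0558), but passed with the replicate number as a block (0.0294), with median scaling (0.0322) and with an intensity trend (0.0414).

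Cldn3 in VII-VIII failed without replicate 1 (0.0735) or 2 (0.0624) of the Venus tubules or replicate 2 of the dnRARa tubules (0.0592), at differences between -2.16 and -2.0, and Ocln without replicate 1 of the Venus tubules (0.09). With only the 4 arrays compared neither Cldn3 (0.123) nor Ocln (0.259) passed in VII-VIII. With normexp background correction the difference of Ocln shrank to -0.85 in IV-VI (adjusted p = 0.412) and -0.59 in VII-VIII (adjusted p = 0.994), whereas that of Cldn3 in VII-VIII was -1.99 (adjusted p = 0.00968). No member passed in I-III, where limma called 2 of 22326 genes in all (0.00896%) and 1 member, Ocln, had an unadjusted p under 0.05. None passed in IX-XII (4.68% of all genes, 3.16% higher), where Ocln (-1.20, adjusted p = 0.0951) and Cldn7 (-0.74, adjusted p = 0.129) had an unadjusted p under 0.05, and Ocln passed with the mean of its probes (0.0345) and with only the 4 arrays compared (0.0429). The test of whether the dnRARa difference varied between stages passed for none of the 7 members, against 0.746% of all genes; its smallest and largest stage differences lay 1.70 apart for Cldn3 and 1.49 for Ocln. With only the virus arrays that test passed for Cldn3 (0.0375).

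Both scan days held dnRARa and Venus arrays, each arm on a slide of its own, so slide and dnRARa cannot be told apart within a day. Within the first of these days, on replicate 1 arrays, the differences were -1.39 for Ocln (adjusted p = 0.0463), -0.94 for Cldn3 (adjusted p = 0.174) and -0.48 for Cldn7 (adjusted p = 0.23). Within the other day, on replicate 2 arrays, they were -1.96 for Ocln (adjusted p = 0.0533), -1.27 for Cldn3 (adjusted p = 0.0863) and -0.74 for Cldn7 (adjusted p = 0.0916). With slide as a random block all 3 passed over the stages (0.000326, 0.00499 and 0.0231). Sertoli markers summed to between 23.5 and 42.2 in dnRARa tubules and 18.0 to 40.7 in Venus tubules, with 1 of 14 higher and 2 lower, and endothelial markers to 1.14 to 1.53 and 1.03 to 2.13, with 1 of 10 higher. Of 6 peritubular myoid markers 3 were lower. Their part in the result was not tested.

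Of 9 other claudin genes tested, Cldn23 was higher in dnRARa tubules (0.84, adjusted p = 0.00497), and Cldn10 was lower in stages VII-VIII (-2.38, adjusted p = 0.0417). Of 12 membrane genes, F11r, which encodes JAM-A, was lower (-0.52, adjusted p = 0.00983), as was Lsr, a gene of junctions where 3 cells meet (-0.43, adjusted p = 0.0243). Of 20 scaffold and polarity genes 2 were higher, Ctnna1 by 0.34 and Arhgap17 by 0.31, and Pard6g was lower (-0.56, adjusted p = 0.0016).

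Because Ocln, Cldn3 and Cldn7 were lower in dnRARa than in Venus tubules, the 250 bases before their annotated starts are shown, from RefSeq (build GRCm38.p6), 5′ to 3′ on the strand of the gene, at chr13:100552719-100552968 (minus strand), chr5:134985964-134986213 (plus strand) and chr11:69965171-69965420 (plus strand). Capitals mark AGGTCA or its reverse TGACCT, the half-site bound by retinoid and other nuclear receptors.
Ocln: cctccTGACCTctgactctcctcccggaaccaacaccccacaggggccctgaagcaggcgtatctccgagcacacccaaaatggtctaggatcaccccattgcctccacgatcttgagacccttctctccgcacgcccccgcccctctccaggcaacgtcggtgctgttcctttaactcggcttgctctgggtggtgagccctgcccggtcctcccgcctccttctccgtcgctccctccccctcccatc
Cldn3: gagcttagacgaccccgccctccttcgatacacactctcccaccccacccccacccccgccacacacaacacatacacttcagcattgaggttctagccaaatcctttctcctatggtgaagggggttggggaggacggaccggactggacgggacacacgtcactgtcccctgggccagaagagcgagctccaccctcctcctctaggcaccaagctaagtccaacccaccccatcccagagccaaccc
Cldn7: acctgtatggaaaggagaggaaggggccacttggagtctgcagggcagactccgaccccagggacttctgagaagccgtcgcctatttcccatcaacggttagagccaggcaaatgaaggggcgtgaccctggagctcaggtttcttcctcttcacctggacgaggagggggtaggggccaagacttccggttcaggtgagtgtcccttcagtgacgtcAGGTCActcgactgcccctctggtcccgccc

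All 9 members matched the RefSeq table, with 13 windows. The half-site stood 31 bases before the start of Cldn7 shown here and 40 before its other start, 245 bases before the Ocln start shown, and 217 before that of Cldn4; the other Ocln window and those of Cldn3, Cldn11, Cldn12, Cldn5, Cldn1 and Tjp1 held none. It was found in 14.0% of all 32851 windows of this length, both strands counted. A direct repeat of the half-site spaced by 5 bases, the arrangement RA receptors are best known to bind, was in none of the members' windows and in 3 of the 32851. CAGGTG or CACCTG, an E-box, was in 17.2% of windows, among them the Cldn4 window, the Cldn7 window shown and the other Ocln window. A match describes these letters only.

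Venus tubules against untreated ones show what came with injection and the control virus. Of 7 members, Cldn7 (0.71, adjusted p = 0.000197), Cldn3 (0.60, adjusted p = 0.00835) and Cldn11 (0.25, adjusted p = 0.00253) were higher in Venus tubules, where 67.0% of all genes were called and 36.3% were higher, and Cldn12 (-0.28, adjusted p = 0.00721) and Tjp1 (-0.32, adjusted p = 0.0211) were lower, where 30.6% were. Cldn3 and Cldn7 were thus higher in Venus than in untreated tubules and lower in dnRARa than in Venus tubules. Both comparisons use the same Venus arrays. From I-III to IX-XII, Cldn7 means were -1.42, -1.85, -2.97 and -2.23 in dnRARa tubules, against -1.91, -2.72, -2.49 and -1.76 in untreated ones. Those of Cldn3 were -1.6, -2.83, -1.46 and -0.33, against -1.05, -2.36, -0.02 and -0.76. The dnRARa and untreated tubules were not tested against each other. Tjp1 turned to the other side with the mean of its probes (0.15, adjusted p = 0.0176) and its call was lost without replicate 2 of Venus stages VII-VIII (0.0526) and with median scaling (0.0506), and that of Cldn7 with normexp (0.14, adjusted p = 0.346). Ocln, at -0.24 (adjusted p = 0.286), passed with normexp (-0.77, adjusted p = 0.00218) and with only the arrays compared (0.0373). Of 14 Sertoli markers 13 were higher in Venus tubules, and all 6 peritubular myoid markers. Their part in the result was not tested, and slide, scan day and virus cannot be told apart.

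Whole testes against untreated tubules add the tissue between the tubules. Cldn5 was higher in whole testes by 1.15 (SE 0.44, adjusted p = 0.0331), with 0.06 and 0.11 in whole testes against -1.79 to -0.50 in untreated tubules, where 52.8% of all genes were called and 35.7% were higher. Tjp1 (-1.39, SE 0.16, adjusted p = 1.66e-06) and Ocln (-1.08, SE 0.29, adjusted p = 0.00416) were lower in whole testes, where 17% of all genes were, and Cldn11 had a difference of -0.24 (adjusted p = 0.0777), which passed with median scaling (-0.54, adjusted p = 0.00299). The sign differed at the second Tjp1 probe, with a mean of -3.59 in whole testes, against -3.98, -3.72, -4.26 and -5.05 in the 4 stage groups of untreated tubules, and with the mean of both probes Tjp1 was at -0.37 (adjusted p = 0.00689). The Cldn5 call failed with normexp (0.83, adjusted p = 0.118) and median scaling (0.86, adjusted p = 0.0775) and without any 1 of 6 arrays, replicate 1 of each untreated stage group (0.0518 to 0.0584) or either whole testis sample (0.135 and 0.158), and that of Ocln failed without replicate 2 of whole testes (0.0614). All 7 tested Leydig markers and 8 of 9 spermatid markers rose in whole testes, the median of all genes was 0.232, and 67.7% of called genes were higher, against 54.4% with quantile and 39.5% with median scaling; slide, scan day and tissue cannot be told apart.

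Across the 12 tubule groups, Pearson correlations of group means, given as a description over samples that share tissue and normalization, were highest between Cldn3 and Ocln (0.73) and lowest between Cldn11 and Cldn5 (-0.73). Over all 17 groups Cldn11 correlated with Cldn4 (0.94) and Cldn12 (0.92), although Cldn4 was above background on 8 arrays. The genes most like Cldn3 over the tubule groups were Kazn (0.953), Slc1a4 (0.946) and Mmp11 (0.943), and those most like Ocln were Tmem255a (0.976), Ddah2 (0.971) and Tst (0.967). For Cldn12 they were Kin (0.985), Haus8 (0.985) and Lrrc40 (0.978), and for Cldn7 Ltbp3 (0.924), Cavin1 (0.898) and Sct (0.897).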

How the data were processed

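Gene expression was measured on 34 one-colour arrays from 0.2 µg of total RNA labelled with Cy3, per the labels. The deposited values are intensity: the authors extracted spots with Agilent Feature Extraction 9.5.3.1 per the file headers (9.5 per the submitters' processing notes), which subtracts background. Other deposited columns, per the file headers, are marks of 0 or 1 for spots well above background, saturated or outlying. At all 45018 spots the deposited series matrix held that same intensity.

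Control spots and outlier spots (32 to 274 per array) were left out, spots of a probe were averaged, and log2 signals were taken minus each array's 75th percentile. Of 41174 probes, 22951 were named by RefSeq accession, 57 by synonym and 10 by symbol. Each gene was read from its probe with the highest mean signal. It was tested if at least 1 of the groups compared had that probe above background on both its arrays. limma 3.58.1 in R 4.3.3 was fitted to 10 testis and Sertoli arrays (5 residual degrees of freedom), to 24 tubule arrays (12), and to all 34 for whole testes against tubules, in 19 comparisons adjusted by the Benjamini-Hochberg method. Group fits were tested on simulated data. Replicate numbers were taken to pair the untreated tubules, where deviations of same-numbered samples correlated at 0.199 to 0.389 in all 6 pairs of stage groups; this pairing comes from the data and not from the labels, and the block was 1 term over all arrays of a model.

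Where neither array of a group was above background, the fold is a lower bound, computed from that array's dimmest detected signal or the probe's own if higher. Such a bound holds for the processed signal only, and the fitted Cldn4 differences with normexp lay below it. The members, gene lists and tests were chosen with earlier results of these data known. The variance prior was first estimated over all genes and then, after those results had been seen and set beside earlier results of these data, over the tested genes, which moved 2 calls of the members (Cldn12 in stages IV-VI against I-III and Cldn3 under dnRARa in IV-VI) to the passing side; both values are given. All members, from each list up to 4 genes by smallest adjusted p, and the 3 genes most like a member were nameable. Slides and scan days came from the file headers.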

Additional observations from a re-analysis of the deposited data

How the results depend on the processing

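Counts of members passing were recomputed under each alternative, 3 of which were chosen after seeing the data (the 2 fits within single scan days and the variance prior over all genes). Of these counts, 315 stayed within 1.5 times the count reported and 44 did not. With only the arrays compared, N3KO against WT fell to 2 members and RA against vehicle had 4, the stage steps had 0 (IV-VI), 1 (IX-XII), the Venus stage test 5, and dnRARa against Venus 0 in IV-VI, 0 in VII-VIII and 1 in IX-XII, with 1 for the interaction. With normexp on the median signal the counts were 1 for RA, 1 for each of the stage steps to IV-VI, VII-VIII and IX-XII, 1 and 2 for the Venus and dnRARa stage tests, and 0 and 1 for dnRARa in IV-VI and VII-VIII. With the mean of detected probes they were 2 for sorted cells against testes, 1 for stages I-III against IX-XII, and 1 each for dnRARa in IV-VI and IX-XII. A model of all arrays gave 1 for RA and 1 for dnRARa in IV-VI. The last count was also 1 with no detection filter, with detection on every array, with the slide block and with the variance prior over all genes; dnRARa in VII-VIII was 1 with detection on every array, and the step to IV-VI 2 with no filter. Within single scan days dnRARa over the stages had 1 and 0. The cause was not tested. Signs reversed, where passing in at least 1 setting, for 3 values: Cldn7 (0.07) and Ocln (0.55) in stages IV-VI under normexp, and Tjp1 in Venus tubules (0.15) with the mean of probes. A further 75 single values changed sign while passing in neither setting. Leaving out 1 array at a time gave 4 to 5 members for sorted cells against testes, 4 to 8 for N3KO, 6 to 7 for culture, 0 to 0 for RA, 4 to 4 for the untreated stage test, 1 to 3, 2 to 3, 1 to 3 and 0 to 0 for its 4 steps, 2 to 3 and 4 to 5 for the Venus and dnRARa stage tests, 3 to 3 for dnRARa over the stages, 0 to 0, 0 to 1, 0 to 2 and 0 to 0 within stages, 0 to 1 for the interaction, 4 to 5 for Venus against untreated and 1 to 3 for testes against tubules. A lone array left in a group is assumed to vary like the other groups.

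The replicate numbers were taken to pair the untreated tubules, but not the testis and Sertoli groups (correlations between -0.054 and 0.065) or the virus groups. In the virus groups the number equals the scan day, and correlations lay between -0.058 and 0.396. Between stages of 1 arm, whose same-numbered arrays shared a slide, they were 0.219 to 0.396 in dnRARa and 0.069 to 0.276 in Venus tubules. With the number as a replicate block the counts were 6 for the untreated stage test (Cldn11 at 0.0236 and Tjp1 at 0.0331 added), 4 for VII-VIII against IV-VI (Tjp1, 0.0341), 4 for IX-XII against VII-VIII (Cldn3, 0.0471), 5 for the dnRARa stage test (Cldn11, 0.0339), 3 for dnRARa in VII-VIII and 4 for testes against tubules (Cldn11, 0.04); no other call changed. Where each group lay on its own slide no block could be fitted for slide or day, and the series table was not run because it equals the processed signal. Median signals were used for normexp. Ocln lies near background in dnRARa tubules, which limits its fold. Counts over all genes moved by more than 1.5 times too. With normexp, dnRARa against Venus called 732 genes over the stages (2959 as reported), 153 in IV-VI (747), 59 in VII-VIII (355), 268 in IX-XII (1082) and 40 for the interaction (180); RA called 561 (1098), the step to IV-VI 6944 (4140), the step to VII-VIII 3908 (8118), the Venus and dnRARa stage tests 8206 (12713) and 8568 (12881), and testes against tubules 6977 (11389). With only the arrays compared the counts were 7187 for RA, 4154 for N3KO (10389), 0 for the step to IV-VI, 4440 for that to IX-XII (9385), 0 for I-III against IX-XII (6300), 4647 for dnRARa over the stages, 1 and 0 in IV-VI and VII-VIII, and 734 for the interaction. Without a detection filter they were 717 for RA, 284 and 717 for dnRARa in IV-VI and IX-XII, 85 for the interaction and 23837 for Venus against untreated (15890). For dnRARa over the stages they were 1871 with the slide block and 753 and 1614 within the scan days; in IV-VI 480 with the variance prior over all genes, in VII-VIII 554 with the replicate block, and 338 for the interaction with an intensity trend. In stages I-III, with 2 genes called, they ran from 0 to 31.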
